A study of Mus musculus with 20 samples.

Results

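Lipid droplets are stores of triglyceride and sterol ester with a coat of proteins. The genes described here encode parts of that coat and a pair of small proteins that carry fatty acids in the cytosol. They are Plin1, Plin2, Plin3, Plin4 and Plin5, the perilipins; Cidea, Cideb and Cidec, the CIDE proteins; and Fabp1 and Fabp4, fatty acid-binding proteins. They were chosen by gene name, and all 10 names matched 1 row each of a count table with 54532 genes. The 20 libraries fall into 4 groups of 5, kidney or liver, with the genotype Lxrα-/- or wild type. All mice were male C57BL/6. Lxrα is the oxysterol receptor that Nr1h3 encodes, and its known targets export sterols and make fatty acids. Age, diet, the deleted part of the gene and whether the mice were littermates are not given in the sources used here. A kidney and a liver library with the same genotype and title number were taken to come from 1 of 10 mice. The main fits did not use that pairing, and the mouse as a block was an alternative. Wild-type mice carry the numbers 1, 3, 4, 5 and 6 and labelled knockout mice the numbers 1 to 5, and values per library are listed in that order.

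Perilipins cover the droplet surface and control how lipases reach the lipid inside. Plin1 and Plin4 are best known from adipocytes, Plin2 and Plin3 are found in most tissues, and Plin5 in tissues that burn fat. CIDE proteins sit where droplets touch and move lipid from one to another. Cideb in hepatocytes also takes part in loading lipid onto very low density lipoproteins, and Cidec rises in fatty liver. Fabp1 is the abundant fatty acid carrier of hepatocytes, while Fabp4 is the carrier of adipocytes, macrophages and capillary endothelium. Several of these genes are textbook targets of the fatty acid receptors PPARα and PPARγ.

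Total counts ran from 23421561 to 35376342 per library. Levels are in CPM, scaled by library size times the TMM factor, with SD over n = 5, and levels of different genes are compared per kilobase of the deposited gene length. Nr1h3 was higher, not lower, in the libraries labelled knockout. Wild-type kidneys held 41.3 ± 3.58 CPM and labelled knockout kidneys 108 ± 20.2, a log2 fold change of 1.27 (standard error, SE, 0.16; edgeR adjusted p = 0.00209). The livers held 119 ± 18.2 and 203 ± 25.0 (0.76, SE 0.12, adjusted p = 0.00277). The genotype is therefore given as labelled. Tissue labels matched their markers: all 10 proximal tubule markers were called higher in wild-type kidney than in wild-type liver, and 9 of 10 hepatocyte markers were called lower. Mitochondrially encoded genes took 50.8% of the counts of wild-type kidney 3 and 7.21% of those of wild-type kidney 1, against 12.6% to 21.1% in the other kidneys. More than 20 counts of Adipoq, the adipocyte hormone adiponectin, were found in wild-type kidney 1, labelled knockout kidneys 2 and 3 and wild-type liver 5. Values without those libraries are given beside the calls and estimates that move without them.

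No member was called between genotypes in kidney or in liver, or for the difference between the tissues, with edgeR's quasi-likelihood test at an adjusted p under 0.05. Of all genes tested, 2.26% were called by genotype in kidney, 6.02% in liver and 1.51% for the difference. Every tested member but Fabp4 had a larger fold change, in size, between the wild-type tissues than between genotypes. Fabp4 had 0.62 between the tissues, and -0.54 in kidney and -0.86 in liver by genotype. Of the 8 members with enough counts to be tested, 7 were called lower in wild-type kidney than in wild-type liver and 0 higher. Over all genes tested in that comparison, 53.8% were called, 24.2% lower and 29.6% higher. That fit did not pair the tissues of a mouse. With the mouse as a block Fabp4 was called too, higher in kidney (0.78, edgeR adjusted p = 0.0268). Wild-type kidneys and livers did not overlap for 5 of the 8 (Plin2, Plin5, Cideb, Cidec and Fabp1) and for 43.3% of all genes. The median log2 fold change of kidney over liver was -2.11 over these 8 members and 0.05 over all genes. In whole tissue, fewer cells of a type and less RNA per cell cannot be told apart.

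**Figure D1:**
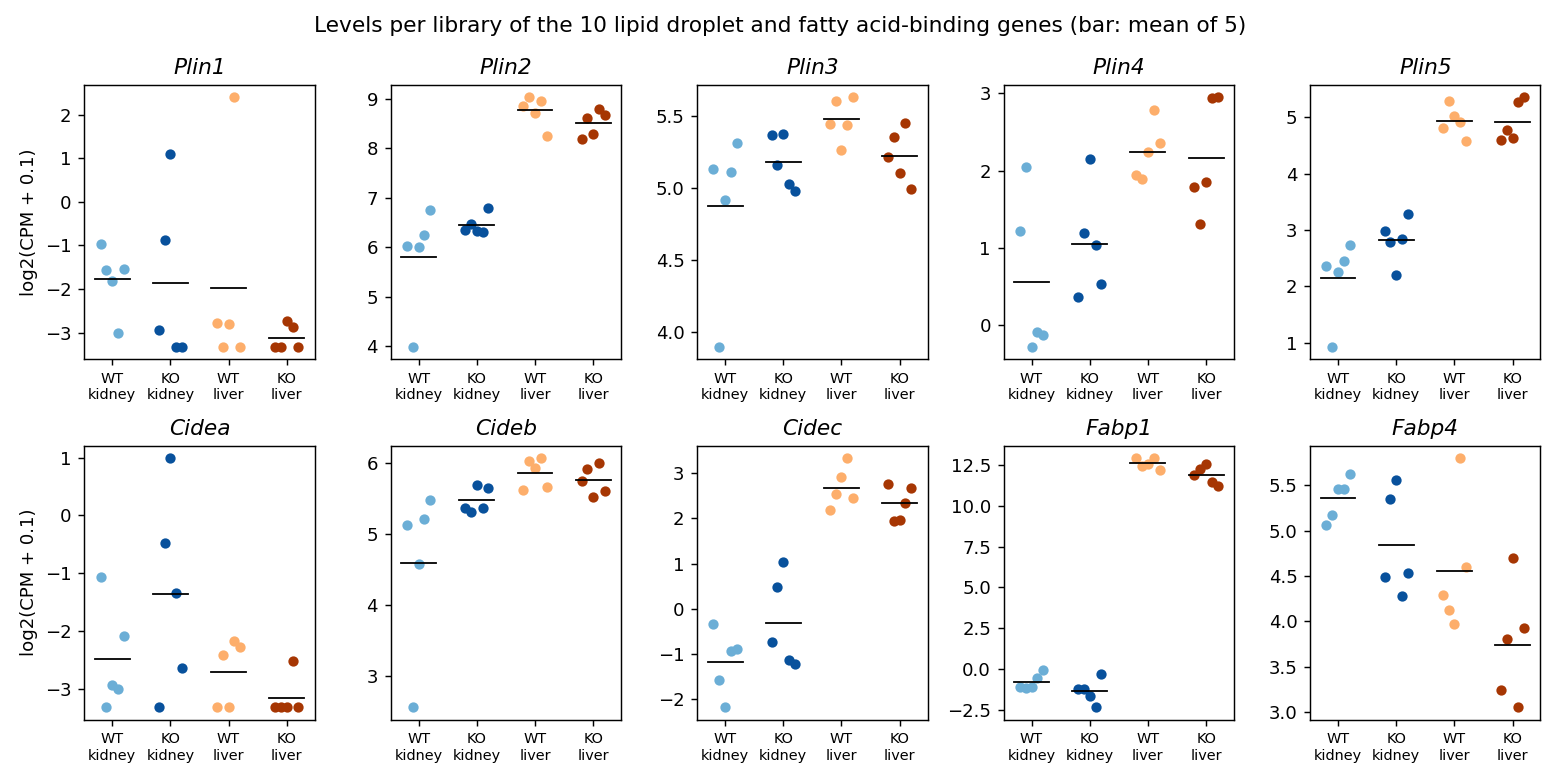
Level of each member in each library as log2(CPM + 0.1), with a panel per gene and its own axis. Points are the 5 libraries of a group and bars the means of these log values. Fabp1 is at 2364 CPM or above in all 10 livers and below 1 CPM in all 10 kidneys, and Plin2, Plin5 and Cidec are higher in every liver than in any kidney.

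Fabp1 had the widest gap between the tissues of any member. Its promoter, the 250 bases before the RefSeq transcription start (build GRCm38.p6, chr6:71199629-71199878, plus strand), is shown with those of Plin2 (chr4:86670060-86670309, minus strand) and Plin5 (chr17:56117549-56117798, minus strand), the other members over 2 log2 units higher in liver that hold a motif match. Capitals mark matches to the motifs searched, each sequence running 5′ to 3′ in the direction of the gene.
Fabp1: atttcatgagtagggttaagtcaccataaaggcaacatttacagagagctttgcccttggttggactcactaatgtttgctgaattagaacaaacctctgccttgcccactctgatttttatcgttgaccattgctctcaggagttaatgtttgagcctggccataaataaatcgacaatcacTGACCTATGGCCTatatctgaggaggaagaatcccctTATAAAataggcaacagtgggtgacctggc
Plin2: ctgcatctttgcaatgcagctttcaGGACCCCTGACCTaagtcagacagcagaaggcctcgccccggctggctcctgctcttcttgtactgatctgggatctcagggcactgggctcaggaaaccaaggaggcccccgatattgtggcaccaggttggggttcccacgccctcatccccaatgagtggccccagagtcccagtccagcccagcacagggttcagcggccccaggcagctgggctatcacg
Plin5: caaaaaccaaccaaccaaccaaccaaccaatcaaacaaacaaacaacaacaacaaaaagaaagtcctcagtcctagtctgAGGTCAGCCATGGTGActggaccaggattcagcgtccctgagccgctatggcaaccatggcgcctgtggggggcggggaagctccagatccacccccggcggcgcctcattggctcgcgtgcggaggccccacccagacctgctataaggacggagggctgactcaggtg
In the Fabp1 promoter the capitals are a match to DR1 (AGGTCANAGGTCA, the repeat bound by PPAR with RXR), which reads on the strand opposite to the one printed, with 1 mismatch, and begins at position -67 from the start, and a TATA box (TATAAA) at position -30. In Plin2 they are a DR1 match, also on the opposite strand, with 2 mismatches at position -225, and in Plin5 a match to DR4 (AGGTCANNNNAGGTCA, the repeat bound by LXR with RXR) with 2 mismatches at position -170.

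Both strands were searched for each motif, and promoters were matched for 8 of the 10 members. Plin5 and Cidec each had a further start site. The other Plin5 window (chr17:56117299-56117548, minus strand) held no match to any motif, and its best DR4 had 5 mismatches. Neither Cidec window held a match. Among 32851 promoters of the same length, 3.24% held a DR1 match with up to 2 mismatches, 2.57% a DR4 match with up to 2, and 12.4% an exact TATAAA. The best match of each promoter was taken. DR1 and DR4 share the repeated letters, so their matches can overlap. HNF1 (GTTAATNATTAAC, up to 2 mismatches, 1.24% of promoters) was found in 0 of the 8 members, and the only other match was a TATAAA in Cideb at position -172. These matches describe the letters in the window and do not show binding.

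Fabp1 (ENSMUSG00000054422, chromosome 6, 71199827 to 71205023, plus strand, mm10) was at 7630, 5614, 5934, 7711 and 4600 CPM in wild-type livers and at 3706, 4834, 5963, 2770 and 2364 in labelled knockout livers. The groups overlapped, because labelled knockout livers 2 and 3 lay above the lowest wild-type liver. In kidney it held between 9 and 32 counts in wild type and between 3 and 24 in the labelled knockout, or 0.509 ± 0.229 and 0.337 ± 0.235 CPM. Wild-type kidney over wild-type liver gave a log2 fold change of -13.62 (SE 0.49, adjusted p = 6.70e-11). The gene took 0.531% ± 0.0841 of all counts in wild-type liver and 0.316% ± 0.120 in labelled knockout liver (SD, n = 5). The genotype difference in liver, -0.68 on the log2 scale with a 95% interval of -1.24 to -0.12 (SE 0.26), was not called (edgeR adjusted p = 0.153). Leaving out labelled knockout livers 4 and 5, a choice made after seeing the data, gave -0.36. That pair had the lowest Fabp1, so leaving it out shrinks the difference by construction.

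Of 10 hepatocyte markers 1 was called lower in the labelled knockout liver, where 4.08% of all genes tested were. It was Alb, the gene of serum albumin (-0.75, adjusted p = 0.0435). Of the fits that left out 1 library, 1 of 10 kept that call, the one without labelled knockout liver 2, with adjusted p up to 0.0959. Fold changes were negative for 5 and positive for 5 of the 10, and their median was -0.05 beside a median of -0.0032 over all genes. The 10 markers summed to 132321 to 175593 CPM in wild-type and 86205 to 124857 in labelled knockout livers. Alb alone was at 90559 ± 11378 and 54138 ± 12489 CPM (SD, n = 5), a large part of those sums. The part of the hepatocyte markers in the Fabp1 value was not tested. In kidney the Fabp1 fold change was -0.70 (interval -1.69 to 0.30, adjusted p = 0.399), at counts too low for a narrow estimate.

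Fabp4 (ENSMUSG00000062515, chromosome 3, 10204088 to 10208576, minus strand) had the only positive fold change of kidney over liver among the 8 members tested. Wild-type kidneys held 33.3, 36.0, 44.1, 43.9 and 49.3 CPM and labelled knockout kidneys 22.4, 40.6, 47.1, 19.4 and 23.1. In liver the values were 19.4, 17.3, 15.6, 55.7 and 24.1 in wild type and 9.37, 13.9, 25.8, 8.18 and 15.1 in the labelled knockout. Of the labelled knockout kidneys, 1, 4 and 5 lay below every wild-type kidney, and 2 and 3, with over 20 Adipoq counts, lay among the wild-type values. The liver values overlapped, and wild-type liver 5 stood alone at the top.

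Both tissues gave a negative fold change for Fabp4 that did not pass the test. It was -0.54 in kidney (interval -1.08 to 0.0009, SE 0.25, adjusted p = 0.253) and -0.86 in liver (interval -1.67 to -0.05, SE 0.38, adjusted p = 0.216). Without wild-type liver 5 the liver value was -0.41 (adjusted p = 0.492). Without the kidneys with over 20 Adipoq counts the kidney value was -1.11 (SE 0.20) and was called (edgeR adjusted p = 0.0350). That choice was made after seeing the data and leaves 4 wild-type and 3 labelled knockout kidneys. It drops labelled knockout kidneys 2 and 3, the highest of their group for Fabp4, and wild-type kidney 1, the lowest of its own. Leaving them out therefore widens the difference by construction.

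Capillary endothelium is among the cells that express Fabp4. All 10 endothelial markers had a negative fold change in each tissue, with a median of -0.81 in kidney and -0.30 in liver. In each tissue 1 of 10 was called lower, beside 1.87% of all genes tested in kidney and 4.08% in liver. That gene was Cdh5, the junction protein VE-cadherin, at -1.08 in kidney (adjusted p = 0.0402) and -0.90 in liver (adjusted p = 0.0340). Leaving out 1 library kept the kidney call in 3 of 10 fits, those without wild-type kidney 3 or 6 or labelled knockout kidney 2, with adjusted p up to 0.124. It kept the liver call in 4 of 10, those without wild-type liver 1 or 3 or labelled knockout liver 2 or 3, with adjusted p up to 0.0941. The 10 markers summed to 315 to 444 CPM in wild-type and 172 to 332 in labelled knockout kidneys, and to 261 to 339 and 182 to 306 in the livers. Labelled knockout kidneys 2 and 3 had the highest sums of their group, 322 and 332, and its highest Fabp4. The wild-type kidneys went the other way. Kidney 1 had their highest sum, 444, and their lowest Fabp4, 33.3 CPM. Kidney 6 had their lowest sum, 315, and their highest Fabp4, 49.3 CPM.

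Macrophages also express Fabp4. Their markers had a median of -0.51 in kidney, with 0 of 9 tested called, and of -0.41 in liver, where 3 of 10 were called lower: Mpeg1, a pore-forming protein (-1.14, adjusted p = 0.00323), the Kupffer cell receptor Clec4f (-1.07, adjusted p = 0.00930) and Adgre1, which encodes F4/80 (-1.26, adjusted p = 0.0126, and 0.0612 with all 20 libraries in 1 fit). Of all genes tested in liver, 4.08% were called lower. Sums of the macrophage markers ran from 115 to 146 CPM in wild-type and 109 to 162 in labelled knockout kidneys, and from 313 to 468 and 179 to 331 in the livers. Clec4f was at 0 in all kidneys. The part of either cell type in the Fabp4 values was not tested.

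Markers of the other cell types also differed between the kidney groups. Of all genes tested, 0.394% were called higher and 1.87% lower in kidney, and 1.94% and 4.08% in liver. Of 10 fibroblast and stellate cell markers 4 were called lower in the labelled knockout kidney, with a median of -1.06: the collagen genes Col1a1 (-2.91, adjusted p = 0.00209), Col3a1 (-2.57, adjusted p = 0.00208) and Col1a2 (-2.30, adjusted p = 0.00209), and Dcn, which encodes decorin (27.8 ± 4.97 CPM in wild type and 15.1 ± 4.54 in the labelled knockout, adjusted p = 0.0370, a call kept in 3 of 10 fits that left out a library). The list summed to 191 to 485 CPM in wild-type and 75.2 to 129 in labelled knockout kidneys, with no overlap. In liver the same 3 collagen genes were called lower, at -1.74, -1.64 and -1.40 (adjusted p = 0.00203, 0.00988 and 0.00930), with a list median of -0.34, and the sums of 241 to 525 and 165 to 325 overlapped. Of 10 proximal tubule markers 1 was called higher in the labelled knockout kidney, the organic anion transporter Slc22a6 (1.11, adjusted p = 0.0332, kept in 3 of 10 such fits). Fold changes were positive for 9 of the 10, with a median of 0.30, and the sums, 21232 to 35886 CPM in wild-type and 40042 to 55813 in labelled knockout kidneys, did not overlap. In liver 2 of them were tested and 1 was called higher, the endocytic receptor Lrp2 (2.41, adjusted p = 0.0144), at 0.270 ± 0.141 CPM in wild type and 1.49 ± 0.969 in the labelled knockout. The part of these cell types in the members' genotype values was not tested.

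Between the tissues Fabp4 was 0.62 higher in wild-type kidney (SE 0.30, interval -0.04 to 1.28, adjusted p = 0.105), which was not called. With the mouse as a block the value was 0.78 (adjusted p = 0.0268), and without wild-type liver 5 it was 1.07 (adjusted p = 0.000325), both called by edgeR. Without the libraries with over 20 Adipoq counts it was 1.14 (adjusted p = 0.000302). Wild-type liver 5 had the highest Fabp4 of its group and wild-type kidney 1 the lowest, so leaving them out raises the value by construction. The other 7 members tested had negative fold changes in this comparison.

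Plin2 (ENSMUSG00000028494, chromosome 4, 86648386 to 86670060, minus strand), the perilipin of most cells that are not adipocytes, was the most abundant coat gene of the liver. Wild-type livers held 465, 523, 422, 497 and 306 CPM and labelled knockout livers 291, 394, 315, 443 and 410. Kidneys held 65.2, 15.8, 63.8, 75.4 and 108 CPM in wild type and 81.6, 89.1, 80.6, 78.6 and 111 in the labelled knockout. Every liver lay above every kidney, the genotypes overlapped in both tissues, and wild-type kidney 3 was far below the other kidneys. Wild-type kidney over liver gave -2.81 (SE 0.38, adjusted p = 2.63e-05). By genotype the fold change was 0.33 in kidney (interval -0.38 to 1.05, adjusted p = 0.565) and -0.27 in liver (interval -0.62 to 0.09, adjusted p = 0.397). Without wild-type kidney 3 the kidney value was 0.11.

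Plin3 (ENSMUSG00000024197, chromosome 17, 56277476 to 56292873, minus strand), which shuttles between cytosol and droplets, was close to even across the 4 groups. Its means were 30.8 ± 9.51 CPM in wild-type and 36.4 ± 4.70 in labelled knockout kidney, and 44.5 ± 4.44 in wild-type and 37.5 ± 4.77 in labelled knockout liver. Wild-type livers ranged from 38.3 to 49.3 CPM and labelled knockout livers from 31.8 to 43.5. The liver fold change of -0.26 (interval -0.49 to -0.02, SE 0.11) had adjusted p = 0.198, and that in kidney was 0.14 (adjusted p = 0.705), or 0.0044 without wild-type kidney 3. Kidney over liver in wild type was called at -0.57 (SE 0.21, edgeR adjusted p = 0.0357). That call was kept in 4 of 10 fits that each left out 1 library, those without wild-type kidney 1, 3 or 6 or wild-type liver 4, with adjusted p up to 0.0729. It was also lost without the libraries with over 20 Adipoq counts (-0.65, adjusted p = 0.0512). With no TMM scaling, under which the median of all genes moved from 0.05 to 0.69, the value was 0.11.

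Plin5 (ENSMUSG00000011305, chromosome 17, 56111601 to 56117596, minus strand), which ties droplets to mitochondria, was at 28.1, 39.3, 32.5, 30.3 and 23.8 CPM in wild-type livers and 24.2, 27.3, 24.6, 38.5 and 40.9 in labelled knockout livers. Kidney values were 5.01, 1.81, 4.66, 5.39 and 6.52 in wild type and 7.81, 6.77, 4.51, 7.03 and 9.68 in the labelled knockout. Labelled knockout kidneys 1, 2, 4 and 5 thus lay above the highest wild-type kidney, and labelled knockout kidney 3, with 90 Adipoq counts, lay below 4 of the wild-type kidneys. The kidney fold change was 0.51 (interval -0.10 to 1.11, SE 0.28, adjusted p = 0.322), or 0.34 without wild-type kidney 3, and that in liver was 0.00 (interval -0.37 to 0.37). Wild-type kidney was lower than wild-type liver by -2.76 (SE 0.27, adjusted p = 1.25e-06).

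Plin4 (ENSMUSG00000002831, chromosome 17, 56100591 to 56109803, minus strand), a perilipin of fat and muscle, lies 1798 bases from Plin5, with Plin3 another 159880 bases beyond Plin5, all on the same strand. It was low in every library. Kidneys ranged from 0.726 to 4.04 CPM in wild type and from 1.18 to 4.33 in the labelled knockout, and livers from 3.61 to 6.80 and from 2.37 to 7.62. Wild-type kidney over liver was called at -1.46 (SE 0.47, adjusted p = 0.0172), and with no TMM scaling it was -0.87 (adjusted p = 0.0969). That call was also lost without the libraries with over 20 Adipoq counts (-1.43, adjusted p = 0.0531). Without wild-type kidneys 1 and 3 the value was -2.63 (adjusted p = 2.93e-06). Those kidneys had the highest Plin4 of their group, so leaving them out widens the difference by construction. The genotype fold changes, 0.21 in kidney (interval -0.94 to 1.36) and 0.03 in liver (interval -0.64 to 0.69), had adjusted p = 0.830 and 0.974. In kidney limma voom with quality weights called it higher at 1.17 (adjusted p = 0.0476), while leaving out labelled knockout kidney 3 gave -0.20 and leaving out wild-type kidney 3 gave 0.86.

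Plin1 (ENSMUSG00000030546, chromosome 7, 79720218 to 79732903, minus strand), the coat protein of the adipocyte droplet, and Cidea, known from brown fat (ENSMUSG00000024526, chromosome 18, 67343564 to 67367794, plus strand), had too few counts to pass the filter in any comparison. Plin1 had 22, 6, 6, 1 and 9 counts in wild-type kidneys, 1, 15, 66, 0 and 0 in labelled knockout kidneys, 1, 0, 1, 128 and 0 in wild-type livers and 0, 0, 1, 1 and 0 in labelled knockout livers. A count of 3 corresponds to between 0.0565 and 0.151 CPM, so most libraries were at or near that floor. The 4 libraries with the most Plin1 were the same 4 with the most Adipoq: wild-type liver 5 (128 Plin1 and 315 Adipoq counts), labelled knockout kidney 3 (66 and 90), wild-type kidney 1 (22 and 26) and labelled knockout kidney 2 (15 and 44). The other 16 libraries had 0 to 3 Adipoq and 0 to 9 Plin1 counts.

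Other adipocyte markers stood in the same libraries. Adipoq, Cfd (adipsin), Retn (resistin) and Lep (leptin) together had 2124 counts in wild-type liver 5, 756 in labelled knockout kidney 3, 322 in labelled knockout kidney 2 and 238 in wild-type kidney 1, against 1 to 28 in the others. Lep alone had 36 counts in wild-type liver 5, 6 in wild-type kidney 1, and 1 and 5 in labelled knockout kidneys 2 and 3. It was at 0 in all other libraries of both genotypes. Cidea had 61 counts in labelled knockout kidney 3, 21 in labelled knockout kidney 2 and 20 in wild-type kidney 1, but 3 in wild-type liver 5. Ucp1, the uncoupling protein of brown fat, had 17, 6 and 18 counts in those 3 kidneys and 0 in wild-type liver 5, but also 8 in wild-type kidney 4 and 4 in wild-type kidney 6, which had few Adipoq counts. Among the remaining libraries Cidea reached 9 counts, in labelled knockout kidney 4. Zic1, another marker of brown fat, was at 0 in all libraries.

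**Figure D2:**
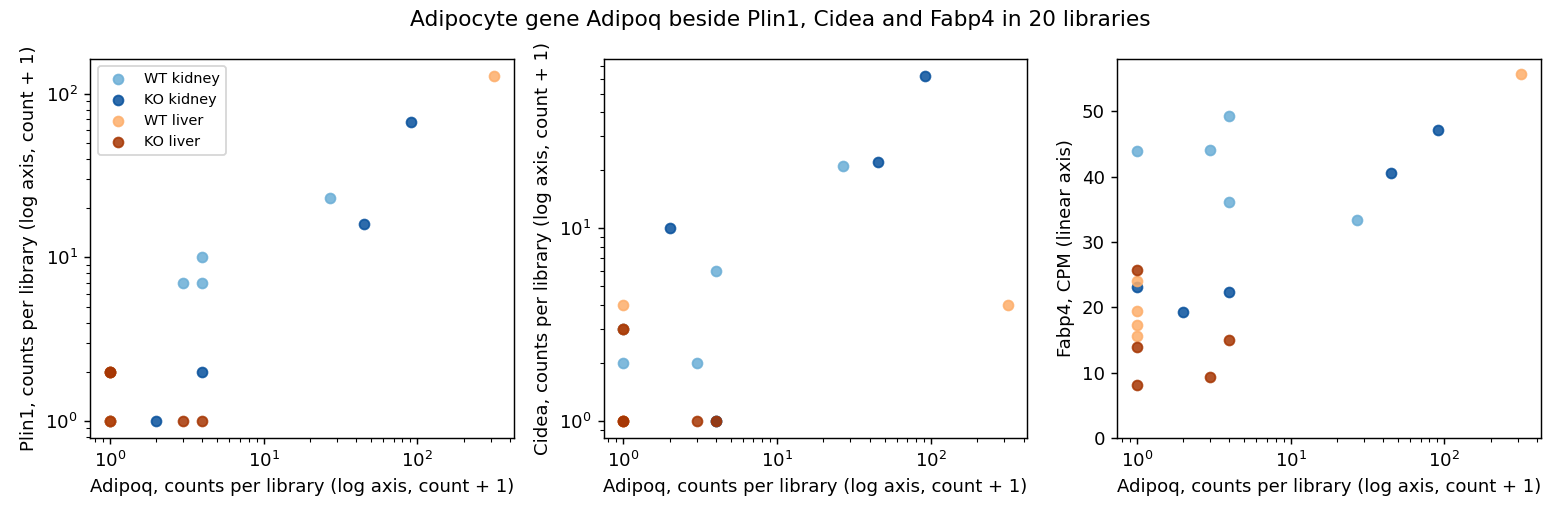
Counts of Plin1 (left, log axis of count + 1), counts of Cidea (middle, same scale) and CPM of Fabp4 (right, linear axis) in each library against counts of Adipoq (log axis of count + 1). Points are libraries, coloured by group, and the 4 libraries with over 20 Adipoq counts are also the 4 with the most Plin1.

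The whole adipocyte list does not separate those libraries, because it holds genes that the tissues themselves express, such as Pck1 and Car3. Its 10 markers summed to 1044 to 1753 CPM in wild-type and 934 to 1708 in labelled knockout kidneys, and to 4236 to 6170 and 4378 to 8689 in the livers. In kidney 6 of its genes were tested, and 1 was called lower, the amine oxidase Aoc3 (-1.62, adjusted p = 0.0462), a call kept in 1 of 10 fits that left out a library, the one without wild-type kidney 6, with adjusted p up to 0.137. In liver 5 were tested and 1 was called higher, the adrenergic receptor Adrb3 (1.49, adjusted p = 0.0318), kept in 5 of 10, those without wild-type liver 1 or 6 or labelled knockout liver 1, 2 or 4, with adjusted p up to 0.0813. The 7 brown fat markers summed to 9.92 to 22.7 CPM in wild-type and 11.2 to 18.1 in labelled knockout kidneys, and to 8.29 to 128 and 137 to 335 in the livers, with 2 of 7 tested in each tissue. Elovl3, a fatty acid elongase in that list, carried the liver sums, with 4.79 to 125 CPM in wild-type and 135 to 333 in labelled knockout livers, and was at 0 in all kidneys. Cox7a1, a subunit of cytochrome oxidase, was called lower in liver (-1.38, adjusted p = 0.0210), but not without wild-type liver 3 or 5 or labelled knockout liver 4 (adjusted p up to 0.0545).

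With no filter beyond 1 count, Plin1 was called lower in labelled knockout liver (-5.51, SE 1.48, edgeR adjusted p = 0.0355), where 128 of the 130 wild-type counts came from wild-type liver 5. In kidney the same setting gave 1.12 (SE 0.88, adjusted p = 0.536) for Plin1 and 2.12 (SE 0.87, adjusted p = 0.289) for Cidea. For Cidea in liver it gave -1.65 (SE 1.19, adjusted p = 0.540). Those unfiltered values depend on the prior count and bound no fold change.

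Cidec (ENSMUSG00000030278, chromosome 6, 113424634 to 113435760, minus strand), which fuses droplets, was a liver gene in these data. Wild-type livers held 4.42, 5.66, 7.45, 9.94 and 5.33 CPM and labelled knockout livers 6.65, 3.73, 3.80, 4.92 and 6.26. Kidneys held 0.697, 0.236, 0.121, 0.422 and 0.437 in wild type and 0.503, 1.30, 1.95, 0.357 and 0.331 in the labelled knockout. The highest kidneys of each genotype were those with over 20 Adipoq counts: wild-type kidney 1 and labelled knockout kidneys 2 and 3. Wild-type kidney over liver gave -4.06 (SE 0.40, adjusted p = 1.19e-06).

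The genotype fold change of Cidec was 1.08 in kidney (interval -0.15 to 2.31, SE 0.57, adjusted p = 0.305) and -0.37 in liver (interval -0.89 to 0.15, adjusted p = 0.425). Without the kidneys with over 20 Adipoq counts the kidney value was 0.27 (adjusted p = 0.817), and without labelled knockout kidney 3 alone it was 0.56. Labelled knockout kidneys 2 and 3 were the highest of their group for Cidec, so leaving them out lowers the value by construction. Leaving out wild-type kidney 1, the highest of its own group, raises it. Without wild-type liver 5 the liver value was -0.19. The difference between the tissues, 1.45 (SE 0.61), was the only one among the 8 members with an unadjusted p under 0.05 (edgeR adjusted p = 0.301), which 13.5% of all genes tested had. It was 0.44 without the libraries with over 20 Adipoq counts and 0.93 without labelled knockout kidney 3.

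Cideb (ENSMUSG00000022219, chromosome 14, 55754050 to 55758458, minus strand), the hepatocyte CIDE protein, was also well expressed in kidney. Wild-type kidneys held 34.8, 5.81, 23.9, 37.1 and 44.4 CPM and labelled knockout kidneys 41.2, 39.6, 51.6, 41.1 and 50.2. Its mean was 58.5 ± 8.24 CPM in wild-type and 54.6 ± 7.63 in labelled knockout liver. Wild-type kidney 3 was again the lowest library. The genotype fold change was 0.53 in kidney (interval -0.24 to 1.29, adjusted p = 0.405), and 0.29 without wild-type kidney 3. In liver it was -0.11 (interval -0.37 to 0.15, adjusted p = 0.669). Kidney over liver in wild type was called at -1.05 (SE 0.37, edgeR adjusted p = 0.0268), but not without wild-type liver 3, wild-type kidney 4 or wild-type liver 5 (adjusted p up to 0.0618), nor with no TMM scaling (-0.34, adjusted p = 0.468) or without the libraries with over 20 Adipoq counts (-1.09, adjusted p = 0.0625).

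Cideb shares 1136 of its 1488 exon bases, or 76.3%, with exons of Nop9 on the opposite strand in the GENCODE M21 annotation of this build. The use of strand in the counting is not given in the sources used here, so reads of the 2 genes cannot be told apart and the Cideb values are uncertain. Nop9, a nucleolar protein, was at 18.4 ± 3.56 CPM in wild-type and 25.7 ± 3.72 in labelled knockout kidney, and at 23.5 ± 2.65 and 27.2 ± 2.37 in the livers. Its fold changes by genotype were 0.37 in kidney (adjusted p = 0.212) and 0.20 in liver (adjusted p = 0.291). Plin4 shares 17 exon bases with Hdgfl2 in the same way.

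Per kilobase, the perilipins had a different mix in the tissues. Plin2 made up 81.8% ± 2.51 of the summed perilipin level in wild-type and 80.4% ± 1.17 in labelled knockout liver, against 60.5% ± 9.31 and 64.8% ± 3.83 in kidney (SD, n = 5). Plin3 made up 29.6% ± 5.84 in wild-type and 25.1% ± 4.30 in labelled knockout kidney, and 7.90% ± 2.06 and 7.68% ± 1.30 in liver. Plin5 held between 7.81% and 11.3% in the means of the 4 groups, and Plin1 and Plin4 at most 1.89%. For both Plin2 and Plin3 the kidney and liver shares did not overlap in any library. The lowest Plin2 share, 44.8%, was in wild-type kidney 3. Cideb was 98.2% and 97.0% of the summed CIDE level in wild-type and labelled knockout kidney and 91.8% and 93.0% in liver. Cidec was at 8.12% in wild-type liver and at most 1.50% in the kidney means. These CIDE shares are uncertain, because reads of Cideb and Nop9 cannot be told apart.

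**Figure D3:**
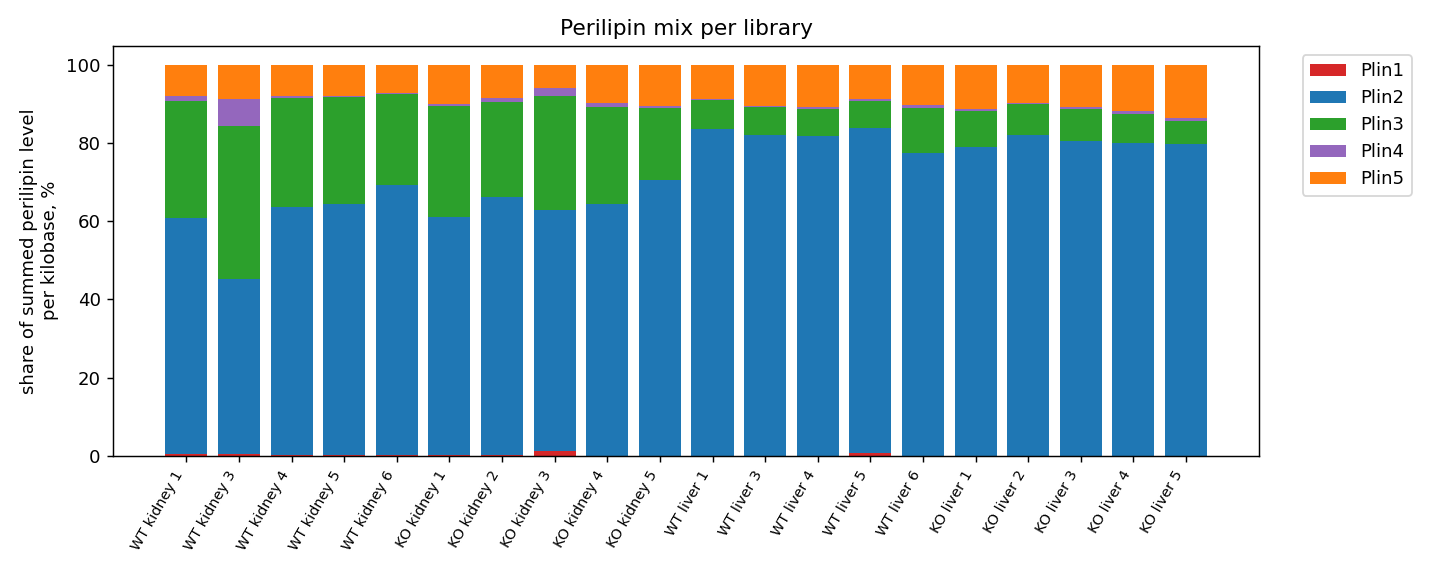
Share of the summed perilipin level per kilobase, in percent, for each library, stacked by gene. Livers are mostly Plin2 with a mean near 81%, and kidneys hold a larger part of Plin3, up to 39.1% in wild-type kidney 3.

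In wild-type liver the order of levels per kilobase was Fabp1 (11389 CPM per kilobase), Plin2 (126), Cideb (39.3), Plin5 (14.7), Plin3 (11.8), Cidec (3.53) and Plin4 (0.824). Plin5 and Plin3 overlapped in range, from 11.4 to 18.8 and from 10.1 to 13.0. In wild-type kidney the order was Cideb (19.6), Plin2 (18.7), Plin3 (8.13), Plin5 (2.24), Fabp1 (0.920), Plin4 (0.300) and Cidec (0.206). There every neighbouring pair overlapped in range except Plin3 and Plin5. Plin1 and Cidea, near the floor, are left out of both orders. Reads of Cideb and Nop9 cannot be told apart, so the place of Cideb in both orders is uncertain. The deposited length of Fabp4, 4489 bases, equals the whole span of its gene, introns included, so its level per kilobase is not set beside the others.

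By genotype, 0 of the 8 members tested were called in kidney, where 2.26% of all genes tested were called (0.394% higher, 1.87% lower), and 0 of 8 in liver, where 6.02% were (1.94% higher, 4.08% lower). At an unadjusted p under 0.05 the counts were 0 in kidney and 3 in liver (Plin3, Fabp1 and Fabp4), beside 19.8% of all genes tested in kidney and 20.3% in liver. DESeq2 called 0 in kidney and 0 in liver. In kidney 6 members had a positive and 2 a negative fold change, with a median of 0.27 beside -0.07 over all genes. In liver 2 were positive and 6 negative, with a median of -0.26 beside -0.0032. The groups did not overlap for 0 of 8 in either tissue, and for 7.55% of all genes in kidney and 6.77% in liver.

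**Figure D4:**
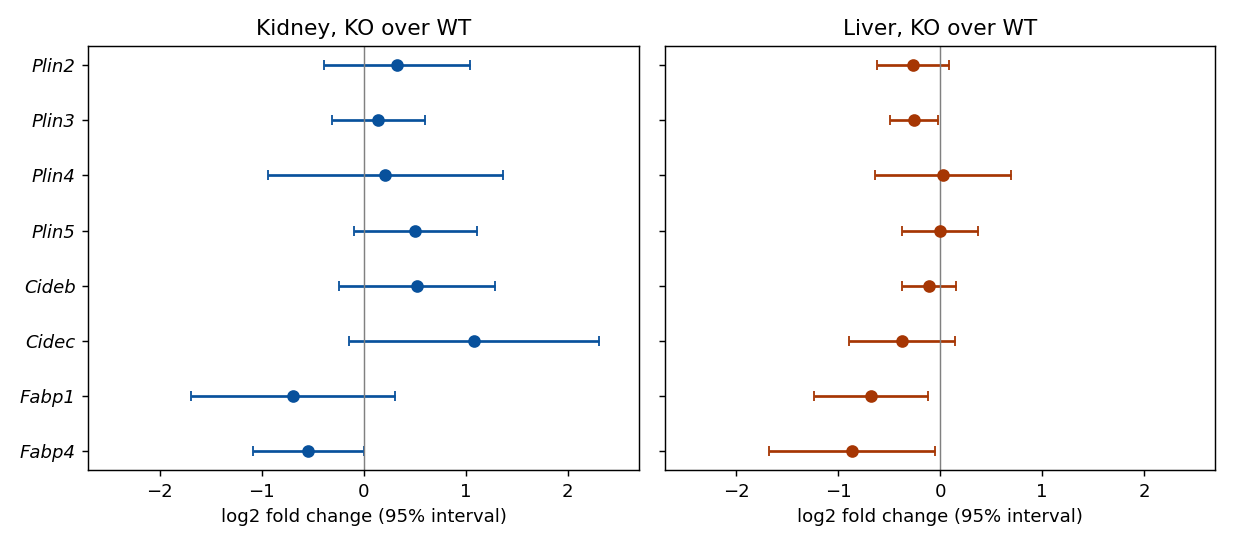
Log2 fold change of labelled knockout over wild type for the 8 members tested, in kidney (left) and liver (right). Points are edgeR estimates and bars 95% intervals. Most intervals include 0; those of Plin3, Fabp1 and Fabp4 in liver lie below 0, and none of the 8 passes adjustment over all genes.

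The difference between the tissues, the kidney fold change minus that in liver, was called for 0 of the 8 members (1.51% of all genes tested were called, 0.937% positive and 0.568% negative; DESeq2 0 of 8). Its estimates were all positive, with a median of 0.46 beside -0.04 over all genes. They were 0.61 for Plin2 (SE 0.41, adjusted p = 0.509), 0.41 for Plin3 (SE 0.25, adjusted p = 0.472), 0.51 for Plin5 (SE 0.34, adjusted p = 0.508) and 0.65 for Cideb (SE 0.41, adjusted p = 0.489). Those of Plin4, Fabp1 and Fabp4 were 0.22, 0.02 and 0.35. Without wild-type kidney 3 the values were 0.37 for Plin2, 0.25 for Plin3, 0.33 for Plin5, 0.39 for Cideb and 0.80 for Plin4. Plin4 turned to -0.19 without labelled knockout kidney 3 and Fabp4 to -0.11 without wild-type liver 5, and the sign of Fabp1 turned in 9 of 20 fits that left out a library.

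Some other fatty acid-binding genes were called by genotype in liver, though their fold changes were not tested against those of Fabp1 and Fabp4. Of 15 fatty acid-binding and related lipid-binding genes in the table, 7 were tested in liver and 2 were called lower. Fabp5, the carrier of skin and macrophages, fell from 423 ± 152 CPM in wild-type to 57.0 ± 49.9 in labelled knockout liver (-2.92, SE 0.56, adjusted p = 0.00892). Fabp2, the intestinal carrier, fell from 114 ± 27.0 to 52.7 ± 12.8 (-1.13, SE 0.20, adjusted p = 0.00528). In kidney 0 of 6 tested were called. Of all genes tested, 4.08% were called lower in liver and 2.26% called in kidney, so 0 of 6 is near the kidney share. The kidney effect minus the liver effect of Fabp5 was 2.87 (adjusted p = 0.0224), and was not called without the libraries with over 20 Adipoq counts (adjusted p = 0.152) or without wild-type kidneys 1 and 3 (adjusted p = 0.0694). The median over the list was -0.27 in liver and 0.09 in kidney.

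Droplet and lipolysis proteins besides the members gave 3 of 20 lower in liver and 0 of 19 called in kidney, with medians of 0.03 and 0.17. The shares over all genes tested were 4.08% lower in liver and 2.26% called in kidney. Mgll, the monoglyceride lipase, fell from 170 ± 21.1 to 114 ± 5.46 CPM (-0.58, SE 0.10, adjusted p = 0.00516). Hsd17b11, a dehydrogenase found on droplets, fell from 202 ± 17.7 to 120 ± 26.6 (-0.76, SE 0.16, adjusted p = 0.0129). Fitm2, which helps droplets bud from the endoplasmic reticulum, was called at -0.50 (adjusted p = 0.0374), but 9 of 10 fits that left out a library lost that call, all but the one without wild-type liver 1 (adjusted p up to 0.112). The liver calls of Mgll and Hsd17b11 were lost with all 20 libraries in 1 fit (adjusted p = 0.0592 and 0.163). For the difference between tissues 2 of 20 were called higher, Hsd17b11 (1.59, adjusted p = 0.0450) and Fitm2 (1.01, adjusted p = 0.0449), and leaving out 1 library kept these in 5 and 4 of 20 fits. With the mouse as a block neither was called (adjusted p = 0.0960 and 0.115), nor without the libraries with over 20 Adipoq counts (0.0652 and 0.0802).

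Targets of PPARα were called lower in 4 of 19 tested in liver and in 0 of 18 in kidney. Of all genes tested, 4.08% were called lower in liver and 1.87% in kidney, so 0 of 18 is near the kidney share. The fatty acid hydroxylase Cyp4a14 fell from 98.2 ± 60.8 to 5.13 ± 6.12 CPM (-4.26, adjusted p = 0.00237). Angptl4, an inhibitor of lipoprotein lipase, fell from 108 ± 13.9 to 61.9 ± 10.7 (-0.82, adjusted p = 0.00296). Cyp4a10 was called at -2.54 (adjusted p = 0.0218), but not without wild-type liver 5 or labelled knockout liver 2 or 4 (adjusted p up to 0.0542). The pantetheinase Vnn1 was called at -0.97 (adjusted p = 0.0499), and of the fits that left out 1 library only those without labelled knockout liver 2 or 4 kept it (adjusted p otherwise up to 0.118). The list had a median of -0.33 in liver and 0.31 in kidney. The difference between tissues was called for Cyp4a10 (2.79, adjusted p = 0.0354), a call kept in 7 of 20 fits that left out a library, with adjusted p up to 0.0817, and lost without the libraries with over 20 Adipoq counts (adjusted p = 0.161). With all 20 libraries in 1 fit the liver call of Angptl4 was lost (adjusted p = 0.0847).

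Genes linked to PPARγ and fatty liver showed the widest changes: 4 of 8 tested in liver were called lower, with a median of -1.20. In kidney 0 of 9 were called, with a median of 0.20. The shares over all genes tested were 4.08% lower in liver and 2.26% called in kidney. Cd36, the fatty acid transporter of the cell surface, fell from 57.9 ± 17.7 to 10.4 ± 3.00 CPM in liver (-2.48, SE 0.25, adjusted p = 0.000116). Scd1, the stearoyl-CoA desaturase, had a liver value of -4.79 (adjusted p = 1.91e-05), lipoprotein lipase (Lpl) of -2.46 (adjusted p = 0.00104) and the lipoprotein receptor Vldlr of -1.88 (adjusted p = 0.00589). The kidney effect minus the liver effect was called higher for all 4: Cd36 (3.36, adjusted p = 5.96e-05), Scd1 (4.04, adjusted p = 0.00105), Lpl (2.81, adjusted p = 0.00337) and Vldlr (1.96, adjusted p = 0.00374).

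Of 11 regulators of droplet genes, Nr1h3 was the only one called in kidney, of 10 tested. In liver Nr1h3 was called higher and Srebf1, the driver of fatty acid synthesis, lower (-1.17, SE 0.25, adjusted p = 0.0162). The PPAR genes, their coactivators, Rxra, Nr1h2, Mlxipl and Creb3l3 were not called by genotype in either tissue. Labelled knockout livers 4 and 5 stood apart from livers 1 to 3 of their group over all genes. Chi-square per degree of freedom of the counts was 162 to 331 across that divide, and 40.5 to 50.4 among livers 1 to 3. It was 87.6 between livers 4 and 5 of that group, and 34.7 to 103 among the wild-type livers. Leaving out labelled knockout livers 4 and 5 was a choice made after seeing the data. Without them the calls of Srebf1 (adjusted p = 0.0728), Fitm2, Vnn1, Cyp4a10, Cdh5, Adgre1, Alb, Lrp2, Cox7a1, Col1a2 and Col3a1 in liver were lost.

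**Figure D5:**
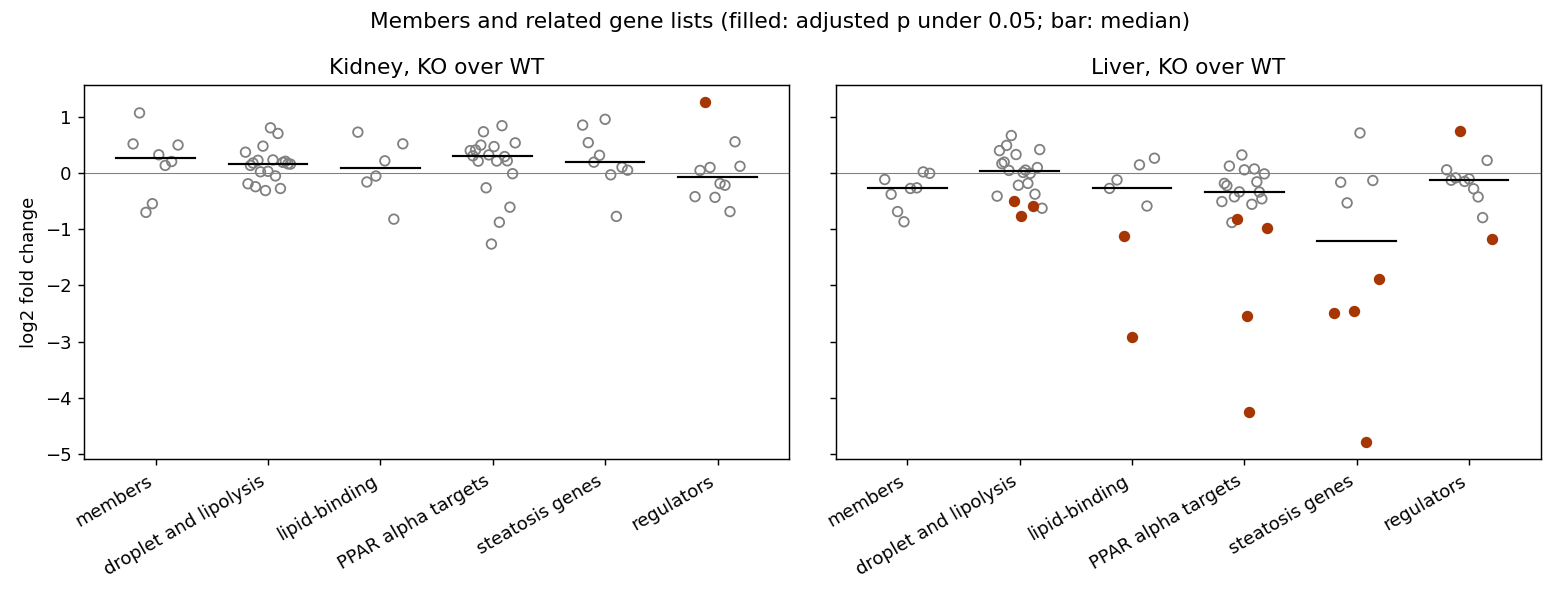
Log2 fold changes of labelled knockout over wild type for the members and the genes of each related list, in kidney (left) and liver (right). Points are the genes tested, filled where called, and bars are medians. The called genes other than Nr1h3 lie below 0 in liver, and no gene besides Nr1h3 is called in kidney.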

How the data were processed

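Per the labels, Trizol extraction and the NEBNext Ultra kit were used. HISAT2 2.0.5, StringTie, DESeq2 1.16.1 and mm10 are named in the submitters' processing notes, with no role or order. The counting tool and its use of strand are not given in the sources used here. The main deposited table gives whole-number counts, not normalized, and a length for each gene. Another deposited table, of log2 FPKM, served in 1 alternative.

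Kidney and liver were fitted apart with edgeR 4.0.16 in R 4.3.3 (filterByExpr with a minimum count of 10, TMM, quasi-likelihood F test, Benjamini-Hochberg over all genes tested). Calls needed an adjusted p under 0.05. The wild-type tissues were compared in the same way, and the difference between tissues used all 20 libraries with a mean per group. SEs were computed from the fold change and its F value. CPM used TMM factors over all 20 libraries. The scripts were tested on simulated data. Floors of 3 counts cover counting error only.

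The members and gene lists were chosen with earlier results of these data known. Named genes are the members, Nr1h3, up to 4 called genes with the smallest p per list and comparison, and the markers called or at 0. Pck1, Car3, Nop9, Hdgfl2 and the adipocyte genes given by count were named after their values were seen. Hepatocyte markers gave 0 of 8 tested in kidney. Muscle markers gave 0 of 5 tested in kidney and 0 of 3 in liver. Equal title numbers of different genotype are not said to share anything, so the block by number was an alternative alone. Kidney and liver of 1 mouse deviated together with r from -0.16 to 0.33 over the 10 mice. Alternatives were DESeq2 1.42.0, limma 3.58.1 (voom and trend), other scaling, other filters, blocks and left-out libraries. A result that the rule names is not reported here.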

Additional observations from a re-analysis of the deposited data

Results flagged for a closer look

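In 4 of the 40 groups of 5 libraries (10 members in 4 groups), 1 library stood apart from the other 4 by more than Dixon's 95% critical value of 0.71. Chance flags about 1 group in 20 only where values are normally distributed. That share is no guide for CPM from low counts, where 4 libraries at 0 and 1 above it are always flagged. Plin1 was at 2.04 CPM (66 counts) in labelled knockout kidney 3 and at 5.15 CPM (128 counts) in wild-type liver 5, the libraries with the most Adipoq in their tissue. Fabp4 was at 55.7 CPM (1383 counts) in the same wild-type liver 5. Cidea was at 0.0734 CPM in labelled knockout liver 4, where that value is 2 counts and the other 4 libraries have 0.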

How the results depend on the processing

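The count of members called stayed at 0 in kidney under every alternative but voom (1, Plin4) and leaving out libraries with over 20 Adipoq counts (1, Fabp4), and at 0 in liver under all but no filter beyond 1 count (1, Plin1). It was 0 for the difference under all alternatives run. Between the wild-type tissues it ran from 5 to 8 about the main 7. Fabp4 was called higher in kidney there by voom (log2 fold change 1.02), with no TMM scaling (1.28) and with the mouse as a block (0.78). Without TMM scaling the called genes of that comparison split into 8536 higher and 2166 lower, against 4921 and 4033.

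Fold changes near 0 changed sign. Plin3 in kidney was -0.0053 without wild-type kidneys 1 and 3. Plin4 in kidney was -0.20 without libraries over 20 Adipoq counts, and from -0.20 to 0.86 with 1 library left out. Plin4 in liver was -0.052 with no TMM, -0.41 by voom, -0.084 by limma-trend and -0.60 without labelled knockout livers 4 and 5, and from -0.19 to 0.20 with 1 left out. Plin5 in liver was -0.078 with no TMM, -0.0022 at a mean of 1 CPM, -0.17 by voom, -0.002 by limma-trend, -0.064 with the title number as replicate block and -0.26 without labelled knockout livers 4 and 5, and from -0.12 to 0.13 with 1 left out. For the difference, Plin4 was -0.40 and Fabp4 -0.69 without libraries over 20 Adipoq counts, with ranges of -0.19 to 0.80 and -0.11 to 0.67 with 1 left out. The difference of Fabp1 was -0.032 with no TMM, -0.010 at a mean of 1 CPM, -0.52 by voom, -0.21 without wild-type kidneys 1 and 3 and -0.0051 without libraries over 20 Adipoq counts, and from -0.44 to 0.28 with 1 left out. Plin3 between wild-type tissues was 0.11 with no TMM. The cause was not tested.

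Samples of equal title number and other genotype deviated together with r from -0.04 to 0.20. Such values do not settle whether the numbers pair them, because kidney and liver of 1 mouse gave -0.16 to 0.33. Over all genes, the block by title number called 185 higher and 717 lower in kidney, against 65 and 308 in the main fit. In liver it called 107 higher and 200 lower, against 288 and 605. With that replicate block 0 members were called in kidney and 0 in liver, 7 of the 15 liver calls in the related lists were lost, and with the mouse as block 0 for the difference and 8 between wild-type tissues.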
